A study of Mus musculus with 2 samples.

Results

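Antisense loci are stretches of the genome where long reads were assigned to the strand opposite an annotated gene, here called the host gene. They were taken from long-read RNA sequencing of the gastrocnemius, a calf muscle, of male B6CASTF1/J mice, with 2 µg of RNA a library. These are F1 hybrids of the strains C57BL/6J and CAST/EiJ, and their age was 36 days. The labels give 1 group with 2 biological replicates and no treatment, and both animals carry the same donor entry, so the replicates measure the spread between these libraries and no conditions can be compared. Every transcript model that the deposited tables class as antisense was a member, models on spike-in RNAs excepted. Replicate 1 had 7700 such models of 72469 with reads, and replicate 2 had 19215 of 88667. Models that overlapped on a strand were joined, which gave 21133 loci with 109152 reads. Of these loci, 20953 lay opposite 8234 annotated genes, 95.0% of them opposite a protein-coding gene, and 180 lay opposite no annotated gene.

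Natural antisense transcripts can start near the promoter of their host and run away from it, can come from a neighbouring gene that runs through the host's 3′ end, or can lie wholly inside the host. Some are known to affect splicing, stability or transcription of the host, and many have no known role. A long-read library copies RNA into cDNA, commonly from an oligo(dT) primer that anneals to the poly(A) tail, and an oligo(dT) primer can also anneal to a run of A inside an RNA. Which primer made these libraries is not given in the sources used here.

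Shown next are the reference bases at the 3′ ends of 9 named loci. They were picked to show ends with and without a run of A after them, and not how frequent each kind is. Of all readable ends, 38.6% were before an A-rich stretch, as given below. Each is on the antisense strand from 5′ to 3′, with the last 10 bases of the leading model (the model with the most reads) in lower case and the 20 bases that follow it in the mm10 reference in capitals. They were read from GENCODE M21 transcripts where 1 annotated exon covered all bases. The first 6 loci end before a run of A, which in the host mRNA is a run of U, and the last 3 do not.
Spry2, chr14:105892586-105892615, plus strand: cacatggaccAAAAAAAAAAAAAAAAAAAA
Sdc4, chr2:164425125-164425154, plus strand: acggagcattAAAAAAAAAAAAAAAAAAAA
Mcu, chr10:59447979-59448008, plus strand: actaattagtAAAAAAAAAAAAAAAAAAAA
Msrb3, chr10:120783305-120783334, plus strand: aactttggacAAAAAAAAAAAAAAAATGGA
Satb1, chr17:51812311-51812340, plus strand: gagaggaattAAAAAAAAAAAAAGGTACCC
Ak1, chr2:32634193-32634222, minus strand: gagatgctgtCTTAAAAAAAAAAAAAAAGA
Klhl31, chr9:77656504-77656533, minus strand: gttccttttcTGAGAGTAGGATTTTATGTT
Cdv3, chr9:103355304-103355333, plus strand: ttctttatccCTAAGGGAAAAGAAATGTAA
Ptp4a2, chr4:129839131-129839160, minus strand: aaaaaaaaaaGCCTACTACTTCTGAGGCCA
The 20 bases after the end held 20 A at Spry2, Sdc4 and Mcu, 17 at Msrb3, 16 at Ak1 and 14 at Satb1, against 5 at Klhl31, 11 at Cdv3 and 4 at Ptp4a2. At Ptp4a2 the 10 bases before the end were all A, so the run there lay inside the model.

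Antisense reads made up 2.29% of mouse reads in replicate 1 (24420 of 1065912, Wilson 95% interval 2.26 to 2.32) and 5.74% in replicate 2 (84732 of 1477248, 5.70 to 5.77), a mean of 4.01% ± 2.44 (SD, n = 2). Intergenic reads also had the larger share in replicate 2 (0.401% and 1.10%), as did genomic models, which lie on the gene's own strand without its junctions (3.42% and 7.75%). Annotated models held 67.6% and 62.8% of mouse reads. The median length of an annotated model with reads was 2262 bases in replicate 1 and 1977 in replicate 2, and that of an antisense model 952.5 and 459 bases. Shorter models and the larger antisense share were thus in the same library, and the part of the one in the other was not tested. The tables give no molecular identifiers, so all intervals cover counting error only. Skeletal muscle markers such as Acta1 and Ckm held 319499 and 241193 reads per 1000000 mouse reads (RPM), and all 7 of the list had reads in both libraries. Markers of fibroblasts (3462 and 871 RPM), Schwann cells (903 and 309), adipocytes (82.6 and 245), immune cells (56.3 and 39.3) and endothelium (17.8 and 12.2) were far lower, and of the satellite cell markers Pax7 was at 0 in both libraries.

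Spike-in RNAs are synthetic molecules made as a single strand and gave a background for strand assignment. They had 40775 and 36684 reads on their own strand in replicates 1 and 2, and 258 and 187 reads on the opposite strand (0.629% and 0.507%). Of these, 258 and 185 fell on spike-ins that had no read on their own strand, and whether the reference holds those spike-ins in the reverse orientation was not tested. On spike-ins with reads on their own strand, 0 reads of replicate 1 and 2 reads of replicate 2 were antisense (upper Wilson 95% limits 0.00942% and 0.0199%). The antisense share of mouse reads was above both shares in both libraries.

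A run of A followed many of the loci whose ends could be read. The 20 reference bases after the 3′ end of the leading model were readable for 4405 loci (20.8%), those where 1 annotated exon covers them, and these loci held 47.9% and 56.1% of antisense reads. At least 12 of the 20 bases were A in 1701 of them (38.6%, Wilson 95% interval 37.2 to 40.1). The share was 38.7% with the loci of replicate 1 alone and 40.1% with those of replicate 2 alone (mean 39.4% ± 0.985, SD, n = 2). Windows of the same length 100 bases past the end reached 12 A in 4.38% of 3860 cases, and windows just before the 5′ start in 1.90% of 5146. Among all windows antisense to the longest transcript of the 3367 hosts, 1.89% did. The share rose with reads, from 33.0% of loci with a single read to 50.6% at 10 to 49 reads and 62.5% at 50 or more.

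The loci split by where the model stopped. The 3′ end fell exactly on an exon edge of an annotated transcript of the opposite strand in 2316 of the readable loci, and there 4.75% were before an A-rich stretch, with a median of 5 A. In the other 2089 loci, whose end was on no such edge, 76.2% were (74.3 to 77.9), with a median of 15 A. This share was 75% and 77.7% in the loci of replicates 1 and 2. It was 74.2% at 1 read, 77.4% at 2 to 9 reads and 77.9% at 10 or more, a smaller rise than over all readable loci. At the same loci 100 bases further on, 4.14% of windows held 12 A. In loci over the host's 3′ end the share was 79.2% (274 of 346), and in loci inside the host and over an exon 77.8% (1312 of 1686). It was low in the few readable loci in introns (1 of 37, 2.70%) and over the host's 5′ end (2 of 11, 18.2%). Over the whole host it was 2 of 3 (66.7%). The polyadenylation signal AATAAA, searched on the antisense strand in the 40 bases up to the end, was found before 6.79% of the 1679 A-rich ends and 9.57% of the 1191 other readable ends for which those 40 bases could be read, against 2.36% of all windows of that length antisense to the hosts. On the opposite strand of those same 40 bases it was found in 1.91% and 2.18%.

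**Figure D1:**
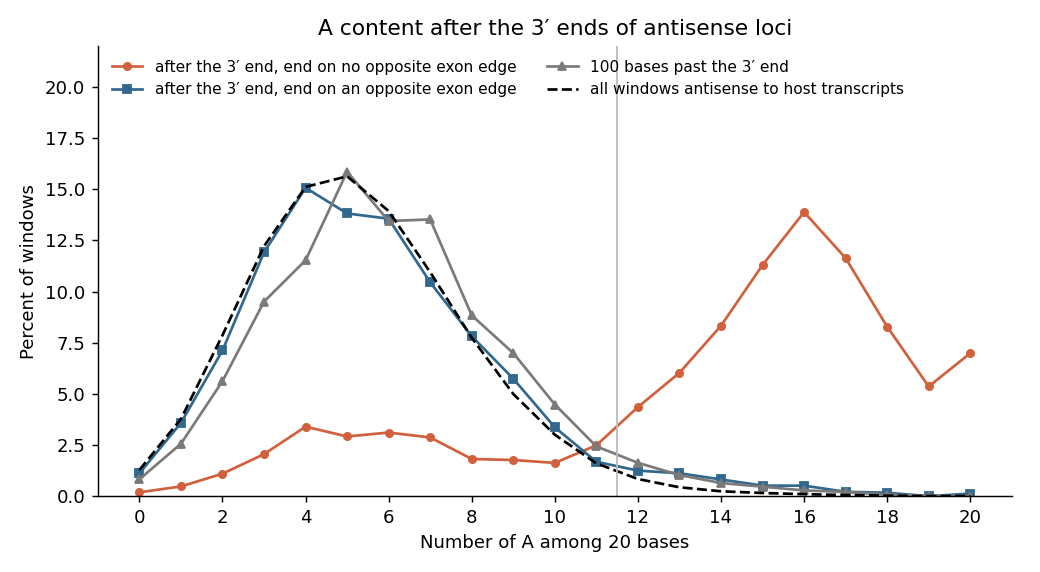
Number of A among 20 reference bases (x axis) and percent of windows (y axis) after the 3′ ends of antisense loci, split by whether the end fell on an annotated exon edge of the opposite strand, 100 bases past the ends, and over all windows antisense to host transcripts; the vertical line marks the minimum of 12 A. Ends on no edge peak at 16 A, and the other 3 curves peak at 4 or 5 A.

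Edges of host exons were frequent among model ends. Of all 26915 models, 9125 had their 5′ end within an annotated exon of the opposite strand, and 71.1% of these ends were exactly on an exon edge. Of the 7684 with the 3′ end in such an exon, 61.8% were on an edge. Exon edges made up 0.579% of annotated exon bases. In 1768 models, with 18.4% and 13.7% of antisense reads, the antisense start was the last base of an opposite transcript, and in 800 models (11.04% and 5.86% of reads) the antisense end was the first base of one. Models listed at 1 base numbered 479, and 354 of them were on an exon edge. Whether the processing moved model ends to annotated positions was not tested, and locus lengths and overlaps of host ends carry this limit.

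Intronic loci were the most numerous, and loci over exons held most of the reads. Of the hosted loci, 12128 (57.9%) lay inside the host and in introns only, and 7335 (35%) lay inside the host and touched an exon. A further 719 (3.43%) covered the host's 3′ end, 648 (3.09%) its 5′ end and 123 (0.587%) the whole host. In reads the order of the first 2 classes was the other way round: loci inside and over an exon had 50.4% of reads in replicate 1 and 56.0% in replicate 2, and intronic loci 26.2% and 28.2%. Loci over the 3′ end had 11.6% and 11.7%. Loci over the 5′ end had 10.6% and 3.11%, and 1 locus opposite Gm26917, described below, had 1755 of their 2563 reads in replicate 1. In all, 41.9% of hosted loci overlapped a host exon (49.3% in replicate 1 alone, 40.3% in replicate 2 alone). The overlap was a single base in 2568 of these 8779 loci (29.3%), and 16.4% of hosted loci lay wholly in host exons, with 49.6% and 53.0% of reads.

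**Figure D2:**
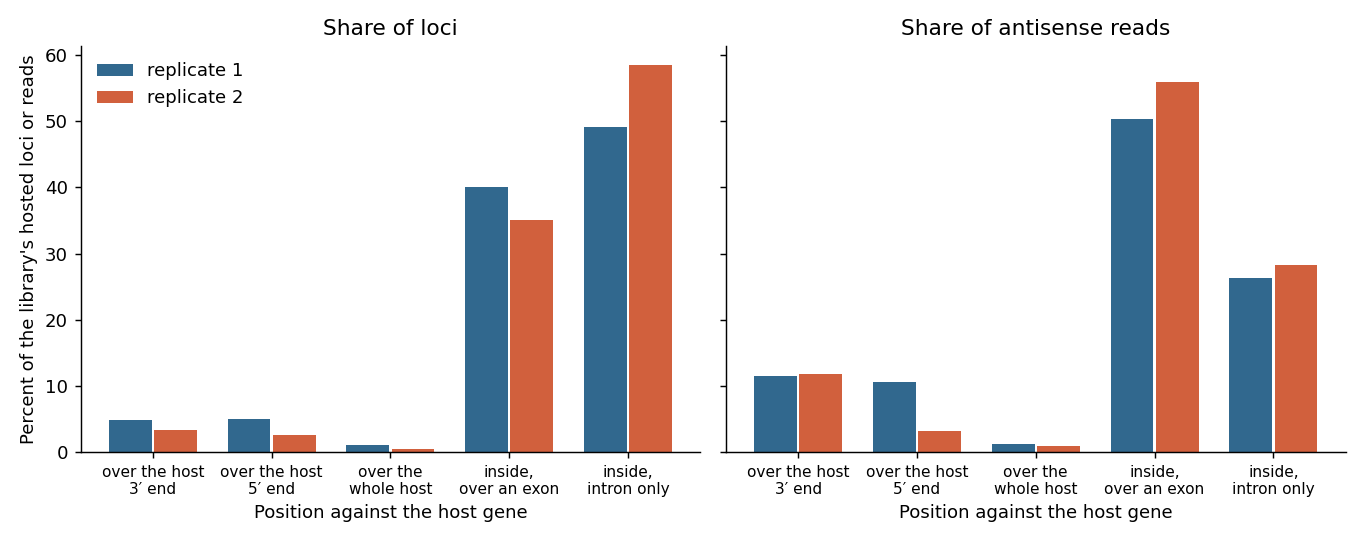
Percent of hosted loci (left) and of their reads (right) by position against the host gene (x axis), with 1 bar for each library. Intron-only loci are the largest class by number in both libraries, and loci inside the host over an exon are the largest by reads.

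Overlap of the host's 3′ end, its last annotated base, was found in 842 loci (4.02%), the 123 that cover the whole host included. It rested on the edges described above: 487 of these loci stopped on that last base, and 355 (1.69%) passed it. At the 5′ end 565 loci (2.70%) passed the first base of the host and 206 stopped on it. Reads and overlap of the 3′ end went together, from 3.09% of loci with 1 read to 10.6% at 10 to 49 reads and 23.7% at 50 or more. Overlap of an exon went from 37.3% to 65.2% and 85.9% over the same groups. The median span of the loci also rose, from 456 bases to 1184 and 1349, and its part in these overlaps was not tested.

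Opposite protein-coding hosts, the 3′ UTR carried most of the exonic antisense reads. Of 8192 loci over an exon of a coding host, 4752 (58.0%) overlapped coding sequence, 3203 (39.1%) a 3′ UTR and 1308 (16.0%) a 5′ UTR. Any overlap counted here, and over all hosts it was a single base in 2568 of 8779 loci. How many of those single bases were coding sequence was not counted, so these shares of loci do not measure how much of a locus is coding. By reads, 69.5% and 75.3% were in loci over a 3′ UTR and 34.7% and 29.8% in loci over coding sequence. By bases, 55.6% of the exonic overlap was 3′ UTR, a part that makes up 39.3% of the exon bases of these hosts. Coding sequence made up 19.5% of the overlap and 33.5% of the exon bases, and the 5′ UTR 6.54% and 6.60%. Loci that touched a 3′ UTR and no other exon part numbered 2076 and held 56.8% and 62.8% of these reads.

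Along the host, intronic loci were above the share of intron bases at the 5′ end and below it at the 3′ end. Exonic loci were most numerous at the 3′ end, but below the share of exon bases there. Each host was cut into deciles from its 5′ to its 3′ end, and a locus was placed by its middle. The 641 loci whose middle lay outside the host were left out. Exonic loci are those that overlap an exon by any base, so their middle can lie in an intron. The part of both choices in the lower share in decile 10 was not tested. Of exonic loci 26.6% had their middle in decile 10, where 33.7% of the hosts' exon bases lie, and 6.90% in decile 2, where 4.33% lie. Of intronic loci 17.0% were in decile 1 and 4.06% in decile 10, against 10.01% and 8.08% of the intron bases of their hosts.

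**Figure D3:**
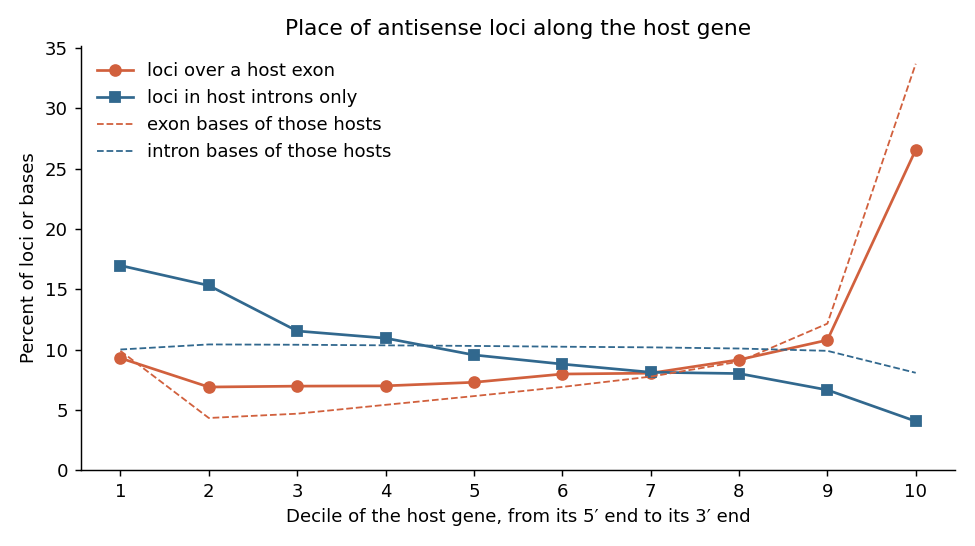
Percent of loci with their middle inside the host (points) and of the exon or intron bases of their hosts (dashed lines) in each decile of the host gene, from 5′ to 3′ (x axis). Intronic loci fall from 17.0% to 4.06% along the host while intron bases lie between 8.08% and 10.4%, and exonic loci rise to 26.6% in decile 10, below the 33.7% of exon bases.

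Loci were short and nearly all unspliced. The median span was 583 bases (quartiles 232 and 1488), and the median length of the leading model was 508 bases. Loci built from replicate 1 alone had a median span of 1061 bases and those from replicate 2 alone 480. Of antisense models 94.1% and 96.8% had a single exon, close to intergenic models (90.2% and 93.9%) and far from annotated ones (7.16% and 9.27%). Among spliced antisense models, 309 and 436 had 2 exons, 92 and 113 had 3, 31 and 40 had 4, and 25 and 19 had 5 or more, up to 12 and 16. A spliced model was present in 900 loci (4.26%), and spliced reads were 2.76% and 1.28% of antisense reads. Splicing differed by position: 25.6% of loci over the host's 5′ end and 32.5% of those over the whole host had a spliced model, against 9.46% over the 3′ end, 5.22% inside over an exon and 1.91% in introns.

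A part of the antisense introns was the exact mirror of a host intron. The spliced models held 1428 distinct introns, with a median length of 1391 bases. Both ends of 257 of them (18.0%, Wilson 95% interval 16.1 to 20.1) equalled those of an annotated intron of the opposite strand. The count that equalled an annotated intron of their own strand was 0. Membership by the antisense class can fix that 0 in advance, so it is no comparison. The usual splice signals are read from 1 strand, and the bases at these introns were not read here. Mirrored introns took 26.5% and 31.7% of the reads counted over antisense introns. They were 14.6% of introns (159 of 1092) opposite hosts with under 100 reads in sum, 28.9% (78 of 270) from 100 and 39.2% (20 of 51) from 1000. By position they were 41.4% of introns of loci inside the host over an exon, and 8.07% of those over its 5′ end. All introns were mirrored in 199 of 1065 spliced models, which had 188 and 366 reads, and 45 of these had 2 or more introns, up to 7. In 845 models (79.3%) no intron was mirrored. Of mirrored introns 47 (18.3%) had reads in both libraries, against 112 of the 1152 (9.72%) that shared no end with an opposite intron.

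Recurrence followed the number of reads. Reads from both libraries were found in 4671 loci (22.1%, Wilson 95% interval 21.5 to 22.7), which held 85.5% of antisense reads of replicate 1 and 72.4% of replicate 2. A further 2836 loci had reads in replicate 1 alone and 13626 in replicate 2 alone. A single read in sum, which can be in only one library, made up 58.1% of loci. With 2 to 4 reads 40.2% of antisense loci were in both libraries, with 5 to 9 reads 69.9%, with 10 to 49 reads 89.3% and with 50 or more 96.5%. Intergenic loci gave 41.5%, 75.1%, 84.7% and 83.9% over the same groups, and annotated genes 59.6%, 91.7%, 99.2% and 99.9%. At a given sum, recurrence also depends on how evenly the reads of a class are split between the libraries. The split was 24420 and 84732 for antisense reads, and 1036455 and 1374068 for reads of annotated genes. Its part in the lower recurrence of antisense loci was not tested. By position, recurrence was 36.7% over the host's 3′ end, 30.2% over its 5′ end, 27.4% inside over an exon and 17.7% in introns.

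**Figure D4:**
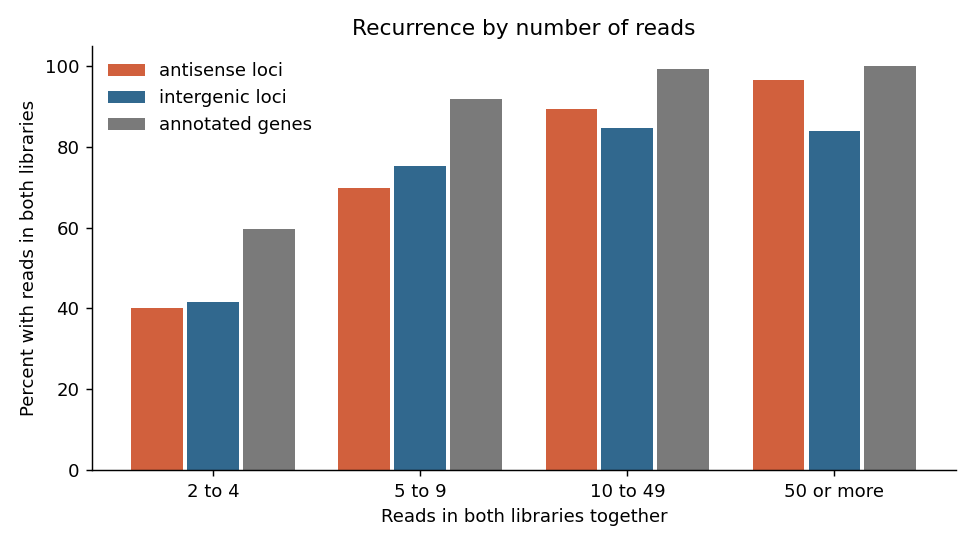
Percent of antisense loci, intergenic loci and annotated genes with reads in both libraries (y axis) by the number of reads in sum (x axis). Antisense loci rise from 40.2% at 2 to 4 reads to 96.5% at 50 or more, and genes are higher in each group. The groups are not adjusted for the split of each class's reads between the libraries.

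Where a locus recurred, its 3′ end was better kept than its start. The leading models of the libraries had 3′ ends within 10 bases of each other in 3588 of 4671 loci (76.8%) and at the same base in 60.9%, and 5′ starts within 10 bases in 44.4%. In the 217 loci with at least 10 reads in each library the values were 74.7% for ends and 44.2% for starts. Ends before an A-rich stretch were within 10 bases in 75.9% of 584 loci and other readable ends in 75.7% of 703, and intergenic loci reached 77.1% of 1068. By position the share ran from 80.2% in introns to 63.3% over the host's 5′ end and 55.6% over the whole host.

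The libraries were then compared locus by locus, with a two-sided exact binomial test of the 2 counts of each feature given the mouse reads of each library. The test compares these libraries and not conditions, and it has no replicate behind it. Over all 9858 features with at least 10 reads in sum (genes, antisense and intergenic loci), 10.2% were called with replicate 2 higher and 13% with replicate 1 higher. A call needed a 2-fold difference and p under 0.05 after Benjamini-Hochberg adjustment. Of the 1253 antisense loci tested, 509 (40.6%) were called with replicate 2 higher and 29 (2.31%) with replicate 1 higher, and 1103 (88.0%) had the higher share in replicate 2. The median log2 ratio of replicate 2 over replicate 1 was 1.49 for antisense loci, 1.30 for intergenic loci and -0.34 for genes. With antisense reads of each library as the total, 126 loci (10.1%) were called with replicate 2 higher and 119 (9.50%) with replicate 1 higher. On that total 36 of 8339 genes (0.432%) were called with replicate 2 higher and 5581 (66.9%) with replicate 1 higher. Of 266 intergenic loci 22 and 29 were called. The even split of antisense loci thus comes with a shift of most genes. Of the A-rich loci shown above, all 6 were called with replicate 2 higher on the mouse total, and Spry2 and Ak1 also on the antisense total. A-rich ends had a median log2 ratio of 1.92 (318 loci) and other readable ends of 1.68 (277 loci), and loci over the host's 5′ end one of 0.46 (40 loci).

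**Figure D5:**
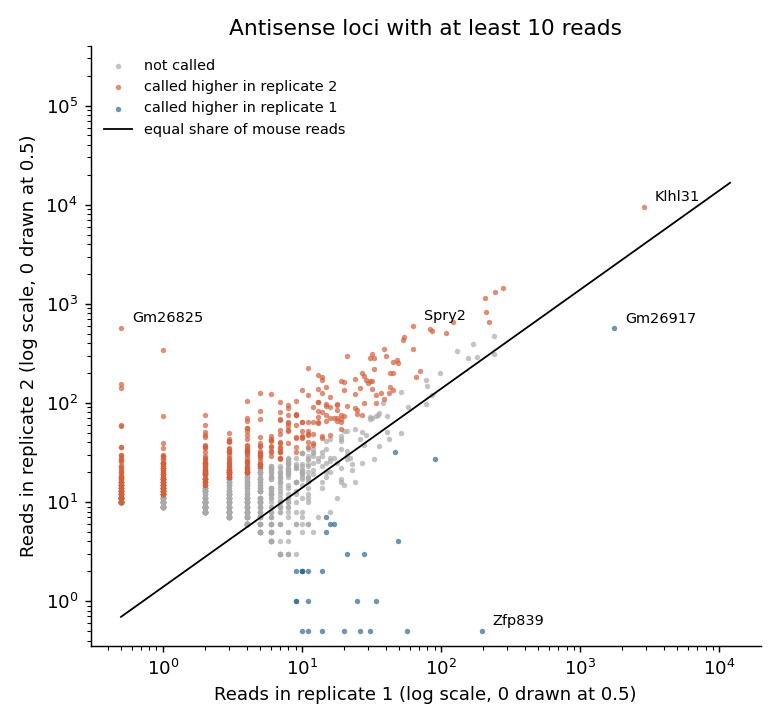
Reads in replicate 1 (x axis) and replicate 2 (y axis), both on log scales with 0 drawn at 0.5, for the 1253 antisense loci with at least 10 reads; each point is a locus, coloured by its call, and the line marks an equal share of mouse reads. Most points lie above the line, 509 of them called, and 29 called points lie below it.

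The locus with the most reads lay opposite Klhl31, which encodes a kelch-family protein. It spanned chr9:77656522-77657838 on the minus strand, 1317 bases wholly within the 3′ UTR, and started 2289 bases short of the host's 3′ end. It had 2865 reads in replicate 1 and 9514 in replicate 2 (2688 and 6440 RPM), while Klhl31 itself had 88 and 100 reads. The ratio of replicate 2 over replicate 1 was 2.40 (exact 95% interval 2.30 to 2.50), below the ratio of the antisense totals, 2.50. In replicate 1, 97 of the reads were in a model listed at 1 base, and the leading 3′ ends of the libraries were 2 bases apart. Antisense reads thus outnumbered those of the host in both libraries.

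Other leading loci also lay in 3′ UTRs of hosts with few reads of their own. Opposite Msrb3, a methionine sulfoxide reductase, chr10:120781231-120783314 (plus strand) had 209 and 1140 reads, against 74 and 60 of the host. Opposite Mcu, the pore subunit of the mitochondrial calcium uniporter, chr10:59447089-59448597 (plus strand) had 122 and 656 reads, against 7 and 14. Opposite Sdc4, a cell-surface heparan sulfate proteoglycan, chr2:164421459-164425262 (plus strand) had 211 and 820 reads, against 6 and 15. All 3 had more reads than their host in both libraries, and each had the same leading 3′ end in both. The joined span of the Sdc4 locus began beyond the host's 3′ end, but most reads of replicate 2 did not. There the leading model was 680 bases long, held 629 of the 820 reads and lay within the 3′ UTR. Opposite Spry2, an inhibitor of receptor tyrosine kinase signalling, chr14:105891947-105892595 (plus strand) had 63 and 603 reads, against 1 and 1, and started on the last base of the host. Its ratio of 6.91 (5.32 to 9.10) was the largest among the 12 loci with most reads. Opposite Mn1, a transcriptional coregulator, chr5:111454616-111456083 (minus strand) had 84 and 561 reads, against 12 and 21, over the 3′ UTR and 173 bases of coding sequence, and its leading ends were 300 bases apart.

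The remaining loci of this group differed in place. Opposite Cdv3, chr9:103354471-103355313 (plus strand) had 281 and 1433 reads, against 23 and 42 of the host, over the 3′ UTR and 148 bases that are coding in some transcripts. Opposite Ptp4a2, a protein tyrosine phosphatase, chr4:129839151-129839678 (minus strand) had 244 and 1318 reads, against 371 and 743, and overlapped 432 bases of 5′ UTR and 96 of coding sequence with both ends on exon edges. Opposite Satb1, a chromatin organiser, chr17:51810919-51812320 (plus strand) had 108 and 511 reads, against 23 and 8, and lay over 554 bases of 5′ UTR. Opposite the non-coding 2900097C17Rik, chr2:156388065-156391513 (plus strand) had 221 and 662 reads, against 89 and 52, with the processed pseudogene Rpl21-ps9 on its own strand within 1000 bases. All of these but Ptp4a2 exceeded the host in both libraries.

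A pair of loci came from the ribosomal RNA region of chromosome 17, where both strands carry annotated genes. Opposite the lincRNA Gm26917, chr17:39843013-39846245 (minus strand) had 1755 reads in replicate 1 and 565 in replicate 2, against 12 and 10 of the host. It was the only locus of the 12 with most reads that was called higher in replicate 1, with a ratio of 0.232 (0.211 to 0.256). Opposite the rRNA gene CT010467.1, chr17:39846353-39846958 (plus strand) had 241 and 474 reads, against 0 and 1, a ratio of 1.42 (1.21 to 1.66), under the 2-fold minimum (exact binomial test, Benjamini-Hochberg adjusted p = 6.86e-05). Ribosomal RNA has many near-identical copies, so the place of these reads is uncertain.

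The 8 spliced loci with most reads and with reads in both libraries had few spliced reads, Mbnl1 excepted. Opposite Atp2a1, the calcium pump of the fast-muscle sarcoplasmic reticulum, chr7:126446518-126455307 (plus strand) had 7 reads in replicate 1, all spliced, and 53 in replicate 2, of which 10 were spliced. All 6 of its introns mirrored Atp2a1 introns, 3 of them with reads in both libraries, and Atp2a1 itself had 104072 and 35745 reads. The protein-coding gene Rabep2 lay within 1000 bases on the strand of the locus. Opposite Nr2f2, a nuclear receptor, the locus had 12 and 31 reads, and its 2 introns, both mirrored, each had 7 and 6. Opposite Srsf10, a splicing factor, it had 12 and 64 reads, of which 2 and 1 were spliced over 3 mirrored introns. Opposite Chtop, a chromatin-associated RNA-binding protein, it had 26 and 43 reads, with 1 mirrored intron in 1 and 3 of them. Opposite Mbnl1, a splicing regulator, 1 mirrored intron of 65789 bases had 0 and 170 reads, and the locus had 14 and 170, so every read of replicate 2 there was spliced. At Sod2, Sec24a and Klhl24 the only intron mirrored none and was in 1 library, with 1, 1 and 4 reads. In these 8 loci the introns with reads in both libraries were thus all mirrored ones.

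Most genes of the muscle lists had an antisense locus. Among 34 sarcomere genes 23 had a locus, among 13 of calcium handling 12 (all but Sln), and among 25 of energy supply 18. Of all 15508 annotated genes with reads 46.1% had one, and of those with at least 100 reads 58.1%. Antisense reads were 0.0897% and 0.346% of all reads at the sarcomere genes, 0.0671% and 0.445% at the calcium handling genes, and 0.0644% and 0.326% at the energy genes. Over all annotated genes with reads they were 2.20% and 5.53%. These pooled shares follow the few hosts with most reads, and the medians over genes were not all low. The median antisense share was 0.00209% and 0.217% at the sarcomere genes, 0.519% and 0.824% at the calcium handling genes, and 0 and 0.0688% at the energy genes, against 0 and 0.357% over the 2256 genes with at least 100 reads. The pooled share fell with the host's own reads: 24.9% and 52.2% over genes with 1 to 9 reads in sum, 9.93% and 25.2% from 10, 2.87% and 7.25% from 100, 0.352% and 0.919% from 1000, and 0.0375% and 0.199% from 10000. The host's own reads are part of the total of the pooled share, so a fall is built into this ratio. The share of genes with a locus, by the same groups, was 32.6% in the lowest group and between 57.6% and 62.2% in the others. Of the hosts 4056 (49.3%) had 1 locus and 1117 had 5 or more, up to 75 at Dmd, which encodes dystrophin. Hosts with no read of their own numbered 1082 (13.1%). Of 2256 genes with at least 100 reads, 74 had an antisense share over 10% in both libraries. Acta1, Actn3, Tnnc2, Tnni2, Aldoa, Eno3 and Slc25a4 were among the 19 listed genes without a locus; a count of 0 allows up to 2.81 and 2.03 RPM.

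Ak1, an adenylate kinase, had the locus with most reads among the listed hosts. It covered 176 bases of the 3′ UTR at chr2:32634213-32634388 (minus strand) with 54 and 460 reads, against 6377 and 6367 of the host, and both libraries had the same end. Its ratio of 6.15 (4.63 to 8.31) was called on the mouse total (exact binomial test, Benjamini-Hochberg adjusted p = 1.51e-53) and on the antisense total. Opposite Myh4, the myosin heavy chain of the fastest fibres, chr11:67252176-67258044 (minus strand) had 33 and 281 reads, against 14581 and 22718. Its joined models overlapped 2235 bases of coding exons, but most reads of replicate 2 did not span them. There the leading model was 126 bases long and held 275 of the 281 reads. The leading ends of the libraries were 5743 bases apart. Opposite Myom2, an M-band protein, chr8:15073390-15075542 (minus strand) had 8 and 76 reads and an A-rich end (15 A). Opposite Pvalb, the calcium buffer parvalbumin, chr15:78197503-78201335 (plus strand) had 38 and 100 reads, a ratio of 1.90 (1.29 to 2.84) that was under 2-fold and not called (exact binomial test, Benjamini-Hochberg adjusted p = 0.00289). Opposite Ttn and Pygm, titin and glycogen phosphorylase, the loci lay in introns with 18 and 96 and with 10 and 64 reads. Opposite Pfkm, phosphofructokinase, the locus had 11 and 52 reads, and its joined models overlapped 74 exon bases. All these loci had reads in both libraries, and in each library the host had more. Titin and nebulin, whose transcripts are among the longest known, had 24 loci each in all, with 44 and 260 reads at Ttn against 263 and 435 of the host, and 30 and 101 at Neb against 168 and 238.

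The largest differences between the libraries were in loci absent, or nearly so, from one of them. Opposite the lincRNA Gm26825, chr5:5781530-5781615 (minus strand) had 0 and 574 reads, which with 3 reads set as the floor of replicate 1 is at least 138-fold higher in replicate 2 (lower exact 95% limit 112). In an intron of Myo3a, an unconventional myosin, chr2:22587962-22588103 (minus strand) had 0 and 154 reads (at least 37.0-fold at that floor, lower limit 29.8), and in an intron of Klf13, a transcription factor, chr7:63921619-63923537 (plus strand) had 0 and 140 (at least 33.7-fold, lower limit 27.03). At Sod2, mitochondrial superoxide dismutase, chr17:13016083-13017209 (minus strand) had 1 and 339 reads, but 317 of the 339 were in models listed at 1 base, which leaves 1 and 22. In the other direction, an intron of Zfp839 held 196 and 0 reads at chr12:110858070-110858565 (minus strand), at least 90.5-fold higher in replicate 1 at the floor of replicate 2 (the ratio of replicate 2 over replicate 1 was 0, with an upper exact 95% limit of 0.0137). A locus with no annotated host at chr12:24638003-24638112 (minus strand) held 57 and 0, an intron of Atcayos 31 and 0, and a locus over Gm13943 26 and 0, all 26 over 1 mirrored intron of 1942 bases. All 8 were called on both totals. Pseudogenes of the locus' own strand lay within 1000 bases at 4 of the 8 (Gm26825, Myo3a, Zfp839 and the unhosted locus), against 0.958% of loci with at least 10 reads, and since pseudogenes can be near-identical to their parent genes the placement of these reads is uncertain. These 8 are the extremes: over all called loci such a pseudogene lay near 4 of 509 with replicate 2 higher (0.786%) and 2 of 29 with replicate 1 higher (6.90%).

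Few loci adjoined an annotated gene of their own strand. Within 1000 bases after the end of such a gene began 521 loci (2.47%, with 13.2% and 6.09% of antisense reads, or 5.99% and 5.42% without the locus opposite Gm26917), and 381 (1.80%) ended within 1000 bases before the start of one. Overlap with a gene on the same strand was found for 283. RefSeq windows around gene starts of the same strand (GRCm38.p6) held the start of 50 loci with 36 and 53 reads, and 30 of these 50 were spliced, against 4.26% of all loci.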

How the data were processed

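The deposited tables hold raw read counts per transcript model of each library with 1 library a table, per the file headers. The counts are whole numbers that the authors deposited without scaling. Assembly mm10, GENCODE M21 and TALON are named in the deposited files, and what aligned the reads is not given in the sources used here. Members and gene lists were chosen with earlier results of these data known.

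Antisense models were joined wherever their spans overlapped by a base on a strand. The host was the opposite-strand gene with the longest exon overlap, then the longest span overlap. Gene bounds came from annotated transcripts, because gene lines of the deposited annotation files can differ from them. Named loci were the 12 with most reads, the 8 spliced loci with most reads and with reads in both libraries, the 4 largest ratios in each direction among called loci and the 8 with most reads opposite listed hosts.

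The exact binomial test was run on features with at least 10 reads in sum, with 0.5 reads added for log2 ratios (scipy 1.17.1, adjusted over all 9858 features). On simulated data of 9332 features it called 5% of 200 antisense loci changed 2-fold, and in a separate simulation of the same kind 72% of 200 changed 4-fold. edgeR's quasi-likelihood test has no residual degree of freedom here. TMM scaling used edgeR 4.0.16 and size factors DESeq2 1.42.0. Shares carry Wilson 95% intervals and ratios exact ones, and a count of 0 was set at 3 reads. No genome of the build was used here, so A-rich ends were read only inside annotated exons, a choice made after the data were seen.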

Additional observations from a re-analysis of the deposited data

Results flagged for a closer look

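Antisense reads also appeared on spike-in RNAs, which enter no comparison of mouse loci: 258 in replicate 1 and 187 in replicate 2, above the limit of 3 reads that a count of 0 allows. They were concentrated in ERCC-00009 (192 and 158 reads) and ERCC-00116 (51 and 17), followed by ERCC-00059 (9 and 9) and ERCC-00099 (5 and 1). None of these 4 had a read on its own strand in either table. ERCC-00074, with 11727 and 14955 reads on its own strand, had 0 and 1 on the other.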

How the results depend on the processing

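Of 58 alternative values, 38 were counted as unchanged. For results with an SD the limit was 1 SD between the libraries, and for counts of loci 1.5 times the value reported. With 2 libraries this SD is wide for some results and narrow for others. The antisense share reported is the mean of the libraries, so leaving out either one always stays within 1 SD. Shares of loci in both libraries and of mirrored introns have no SD, so their alternatives were not judged by it. The count of 38 is thus partly fixed in advance and is no measure of stability. Loci with at least 2 reads gave 52.8% in both libraries, 48.3% over a host exon, 5.31% over the host's 3′ end, 23.7% of introns mirrored and 43.8% of readable ends A-rich. With at least 10 reads the shares were 90.4% in both, 68.5% over an exon and 12.7% over the 3′ end, with a median span of 1211 bases. Requiring the locus to pass the host's last base gave 1.69%. Allowing 10 bases at each intron end gave 20.5% mirrored. A-rich ends were 32.4% with 14 A, 43.2% with 10 A, 40.7% without leading models under 50 bases and 76.2% on no exon edge. With any 20 bases on either side of the end they were 63.3% (12.5% around a point 100 bases past it). That value covers only the 2870 loci whose 40 bases before the end were also readable. Of these, 1679 met the main rule and 1816 the wider one. The step from 38.6% over 4405 loci is thus in large part a change of loci. Leaving out a replicate gave 40.3% to 49.3% over an exon, 3.44% to 5.15% over the 3′ end, 3.27% to 5.99% spliced, an antisense share of 2.29% to 5.74%, a median span of 480 to 1061 bases and 38.7% to 40.1% A-rich. Antisense reads as the total reduced called loci from 538 to 245 and called Chtop with replicate 1 higher. On it the median log2 ratio moved from 1.49 to 0.16 for antisense loci and from 1.30 to -0.02 for intergenic loci. It also called 66.9% of genes with replicate 1 higher. The other scalings and filters called between 365 and 632. The cause was not tested. Alternatives on A-rich ends, passing the last base and the antisense total were added after the data were seen. The A-rich result over all loci was not run, since it needs a genome. No paired analysis was possible because there is 1 group, and leaving a library out of the comparison between libraries leaves nothing to compare. Depth limits the loci with 1 read, 58.1% of all.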
